A study of Homo sapiens with 6 samples.

Results

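The interleukin-1 (IL-1) family was followed through 10 genes: the agonist ligands *IL1A*, *IL1B*, *IL18* and *IL33*, the receptor antagonist *IL1RN*, the receptor chains *IL1R1*, *IL1RAP* and *IL1RL1*, and the receptor-associated kinases *IRAK1* and *IRAK2*. The genes were picked by symbol, and all 10 are among the 31831 genes of the count table. The libraries all came from HK-2 cells in 30 mM glucose for 72 h, with a control vector or an hnRNP-F overexpression vector. With hnRNP-F overexpression, *IL1A* fell to 0.428 times its control level, while *IRAK2* rose 1.42-fold and *IL18* rose 1.23-fold. Of all genes tested, 25.9% were called lower and 25.9% higher (adjusted p under 0.05). The log2 fold change of *IRAK2* was close to the median of the genes within 10 Mb (0.50 against 0.43). *IL1R1*, *IL1RAP*, *IRAK1* and *IL1B* did not pass the test, and *IL1RN*, *IL33* and *IL1RL1* had too few counts to be tested.

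IL-1α, encoded by *IL1A*, and IL-1β, encoded by *IL1B*, bind the same receptor, IL1R1, which then recruits the accessory chain IL1RAP. The adaptor MyD88 and the IRAK kinases carry the signal on to TRAF6 and NF-κB, which switches on chemokines, IL-6 and other inflammatory genes. IL-1Ra, the product of *IL1RN*, occupies IL1R1 without signalling. IL-33 uses ST2, the product of *IL1RL1*, with the same accessory chain, while IL-18 has receptor chains of its own and is made by tubular epithelium as an inactive precursor. IL-1α and IL-33 are stored inside epithelial cells and act as alarm signals when the cells are damaged.

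HK-2 is an established line of human proximal tubule epithelium. All 6 libraries came from cells in medium with 30 mM glucose for 72 h, of which 3 carried the control vector (HG-NC) and 3 the hnRNP-F overexpression vector (HG-OE). The labels name a control plasmid and the methods name lentiviruses, and the methods describe parallel wells and biological replicates of the same line, so p-values measure the spread between such cultures. No untreated cells and no cells in normal glucose are among these libraries, and the count of *HNRNPF* does not tell vector transcripts from endogenous ones. *HNRNPF* was at 304 to 319 CPM (a count relative to its library's total, scaled by edgeR's TMM method) under the control vector and at 423 to 452 CPM under the hnRNP-F vector, which is 0.48 higher on the log2 scale (adjusted p = 2.80e-07). The libraries held 25507595 to 29444841 counted read pairs. Values by library are listed in the order of replicates 1, 2 and 3. Of 15 listed kidney epithelium markers, 12 had at least 10 counts in each library but HG-OE replicate 3, where 14 did. *PAX8*, *KRT8* and *KRT18* had at least 5216 counts in every library, but their levels differed between the groups. *PAX8* was at 603 to 655 CPM in HG-NC and 408 to 472 CPM in HG-OE. *KRT8* was at 293 to 299 CPM in HG-NC, at 629 and 653 CPM in HG-OE replicates 1 and 2 and at 983 CPM in HG-OE replicate 3. *KRT18* was at 205 to 207, at 278 and 282 and at 488 CPM in the same order. *LRP2*, which encodes megalin, had 0 counts in 5 libraries and 17 in HG-OE replicate 3, and *SLC22A6* and *SLC22A8* are not listed. Of 13 listed markers of myeloid cells, which are best known for IL-1β, 7 or 8 had at least 10 counts in each library. The list summed to 102 to 106 CPM in HG-NC and 165 to 170 CPM in HG-OE, most of it from *CD74* (2080 to 4489 counts), and without *CD74* to 20.7 to 21.8 and 14.9 to 25.9 CPM. *ITGAX* had 99 to 185 counts. *CD14* had 428 counts in HG-OE replicate 3 and 78 to 141 in the others, and *LYZ* had 40 and 7 to 20. *CSF1R* (51 and 62 to 142) and *FCER1G* (55 and 58 to 107) were lowest in that library. The pan-leukocyte gene *PTPRC* had 1 or 2 counts and *TYROBP* 0 or 1. The part of these myeloid list genes in the results was not tested.

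HG-OE replicate 3 stood apart from the other libraries, and it carried most of the counts of several IL-1 family genes. Of 21 listed squamous epithelium markers, 12 had at least 10 counts in this library and at most 3 in each of the others, among them *KRT5* (334 counts against 0), *KRT6A* (274 against 0) and *KRT13* (247 against 0 to 2), and 9 of the 21 had no counts in the other 5 libraries. The list summed to 135 CPM in HG-OE replicate 3 and to 58.9 to 94.0 CPM in the others. *KRT10* took 73.5 to 78.5 CPM of it in HG-NC and 42.9 to 48.7 CPM in HG-OE, with the lowest value in HG-OE replicate 3. Without *KRT10* the list summed to 92.6 CPM in HG-OE replicate 3 and to 11.5 to 15.5 CPM in the others. *DSC3* had 123 to 185 counts across all libraries. In the hepatocyte list, *SERPINA1* took 258 to 275 CPM in HG-NC and 395 to 458 CPM in HG-OE. The other 11 genes summed to 331 CPM in HG-OE replicate 3, to 11.7 CPM in HG-NC replicate 3 and to 1.44 to 4.81 CPM elsewhere. HG-NC replicate 3 thus carried a smaller signal of the same kind, with 8 of the 12 genes at 10 or more counts against 2 in each of the other 4 libraries outside HG-OE replicate 3, where all 12 were. Albumin (*ALB*) had 4359 counts in HG-OE replicate 3, 78 in HG-NC replicate 3 and 0 to 4 elsewhere, *FGA* 761, 65 and 0 to 4, and *HP* 33, 34 and 0 to 2. Among 17551 protein-coding genes in the table, 298 had at least 10 counts in HG-OE replicate 3 and at most 3 in each other library. The part of these signals in the values of the IL-1 family was not tested, and values without HG-OE replicate 3 are given beside the results. Leaving out HG-NC replicate 3 changed no call among the IL-1 family genes tested, with log2 fold changes of -1.14 for *IL1A*, 0.26 for *IL18* and 0.52 for *IRAK2*.

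**Figure D1:**
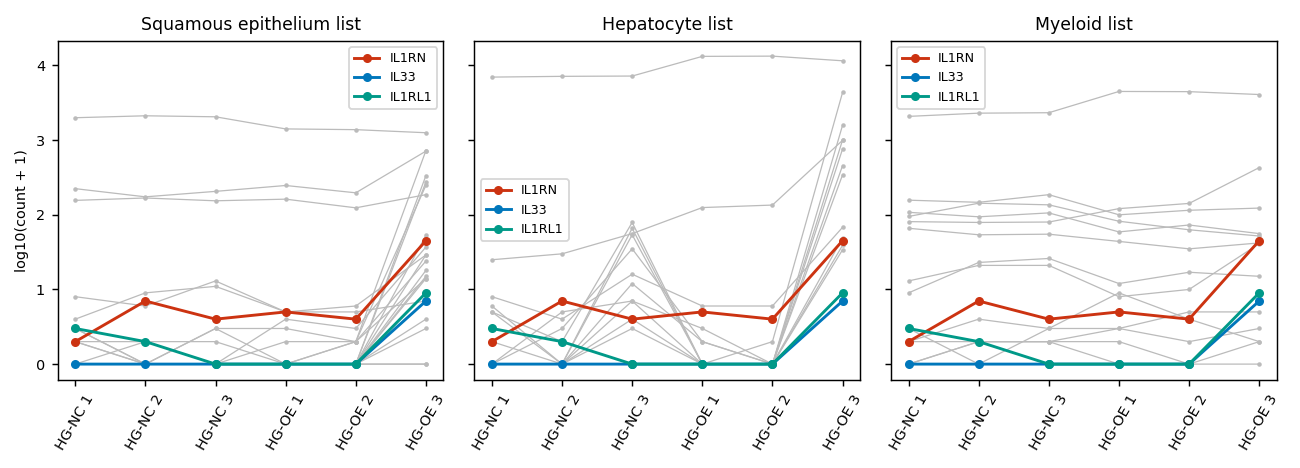
Counts on a log10(count + 1) scale in the 6 libraries (x axis) for the genes of the squamous epithelium, hepatocyte and myeloid lists (grey lines, 1 per gene) with *IL1RN*, *IL33* and *IL1RL1* in colour. In HG-OE replicate 3, *IL1RN* reached 44 counts, *IL1RL1* 8 and *IL33* 6, and 12 squamous and 2 hepatocyte genes had at least 10 counts there and at most 3 in each other library, while 8 hepatocyte genes had at least 10 counts in HG-NC replicate 3 too.

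Levels were first compared between the genes within each group, using FPKM, which accounts for transcript length. In HG-NC the order was *IRAK1* (89.5 ± 2.14 FPKM, mean ± SD, n = 3), *IRAK2* (17.6 ± 0.520), *IL18* (11.8 ± 0.615), *IL1A* (2.48 ± 0.439), *IL1RAP* (1.65 ± 0.0252), *IL1R1* (0.847 ± 0.0321) and *IL1B* (0.293 ± 0.0833). The ranges of the 3 libraries did not overlap between any neighbours in this order, nor between *IL1B* and *IL1RN*. *IL1RN*, *IL1RL1* and *IL33* came last, at no more than 0.06 FPKM in any HG-NC library, and their ranges could not be separated. The kinases and *IL18* thus stood above the ligands of IL1R1 and above the receptor chains. In HG-OE, *IRAK1* (86.4 ± 1.72 FPKM), *IRAK2* (24.7 ± 2.31) and *IL18* (14.3 ± 0.817) kept the first 3 places with separate ranges. *IL1A* (1.05 ± 0.417 FPKM) moved below *IL1RAP* (1.57 ± 0.110), and its range overlapped those of *IL1RAP* and *IL1R1* (0.993 ± 0.127). Without HG-OE replicate 3, the means of the other 2 libraries were 87.1 FPKM for *IRAK1*, 26.1 for *IRAK2*, 13.9 for *IL18*, 1.51 for *IL1RAP*, 0.920 for *IL1R1* and 0.815 for *IL1A*, which then stood below *IL1R1* with overlapping ranges.

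**Figure D2:**
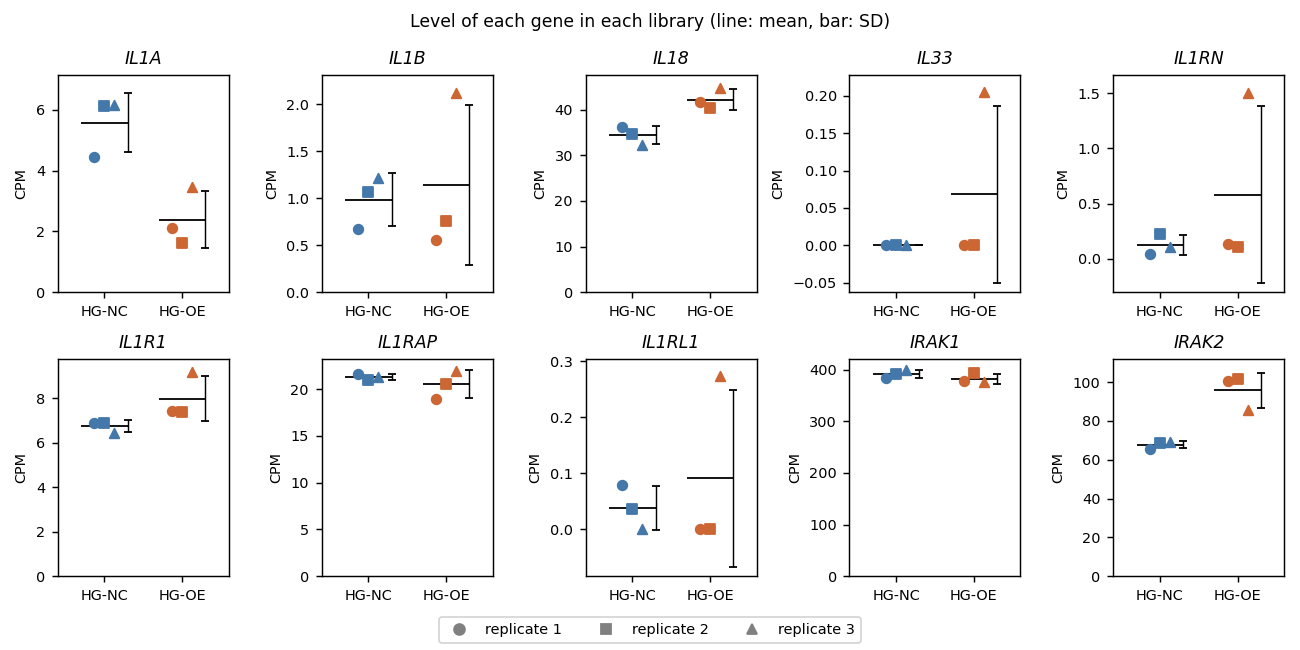
CPM of each of the 10 genes (y axis, linear) in HG-NC and HG-OE, with 1 point per library, a line at the mean and a bar for the SD of 3 libraries. The points of the groups are apart for *IL1A*, where HG-OE is lower, and for *IL18*, *IL1R1* and *IRAK2*, where HG-OE is higher, and the high points of *IL1B*, *IL33*, *IL1RN* and *IL1RL1* belong to HG-OE replicate 3.

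Expression was then compared between HG-OE and HG-NC with edgeR's quasi-likelihood test. Of the 10 genes, 7 passed the low-count filter. With adjusted p below 0.05 as the threshold, 1 of the 7 was lower in HG-OE, where 25.9% of all 17142 genes tested were lower, and 2 were higher, where 25.9% of all genes were higher. With a change of at least 2-fold in addition, the threshold of the study, *IL1A* was called lower (2.13% of all genes) and none of the 7 was called higher (3.69% of all genes). In 4 of the 7, the groups did not overlap in CPM, against 59.0% of all genes tested. These shares do not set the 7 genes apart from the table. Without HG-OE replicate 3, 1 gene was again lower and 2 were again higher, and they were *IL1A*, *IL18* and *IRAK2* as before (27.2% and 26.7% of all genes in that comparison).

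*IL1A* (ENSG00000115008.6), the gene of IL-1α, lies on the minus strand of chromosome 2 (GRCh38, 112773925 to 112784493). Its counts were 113, 166 and 172 in the control libraries against 61, 47 and 101 in the HG-OE libraries, and the groups did not overlap. The mean fell from 5.58 ± 0.981 CPM (SD, n = 3) to 2.39 ± 0.950 CPM (SD, n = 3). In bulk libraries, fewer cells that express a gene and less RNA per cell cannot be told apart. The log2 fold change was -1.22 (standard error, SE, 0.234, 95% interval -1.73 to -0.72, adjusted p = 6.07e-04). HG-OE replicate 3 was the highest of its group, and without it the log2 fold change was -1.59, which is 3.00-fold lower than HG-NC. The exact two-sided permutation test gave p = 0.1, which no split of 3 libraries against 3 can go below, as it did for *IL18*, *IL1R1* and *IRAK2*.

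The stretches before the start sites of *IL1A*, of *IL1B*, its neighbour and partner at the receptor, and of *IRAK2*, the gene that rose most, are printed here from RefSeq (GRCh38.p14) so that the genes with opposite changes can be set side by side. Each begins 250 bases before the start site of the Ensembl canonical transcript and runs, on the strand of the gene, up to the outermost annotated start, at chr2:112784494-112784743 (minus strand), chr2:112836817-112837029 (minus strand, 213 bases) and chr3:10164669-10164918 (plus strand). Capitals mark matches to the AP-1 heptamer TGANTCA, which reads the same on both strands.
IL1A: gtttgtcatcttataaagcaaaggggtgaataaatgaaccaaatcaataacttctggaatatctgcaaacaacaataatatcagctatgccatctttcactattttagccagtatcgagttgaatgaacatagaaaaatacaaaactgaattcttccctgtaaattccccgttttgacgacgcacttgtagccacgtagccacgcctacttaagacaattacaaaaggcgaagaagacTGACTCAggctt
IL1B: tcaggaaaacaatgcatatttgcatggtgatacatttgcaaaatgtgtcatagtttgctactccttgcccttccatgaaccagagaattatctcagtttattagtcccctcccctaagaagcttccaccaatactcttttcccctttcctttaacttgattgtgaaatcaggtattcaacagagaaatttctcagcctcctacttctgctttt
IRAK2: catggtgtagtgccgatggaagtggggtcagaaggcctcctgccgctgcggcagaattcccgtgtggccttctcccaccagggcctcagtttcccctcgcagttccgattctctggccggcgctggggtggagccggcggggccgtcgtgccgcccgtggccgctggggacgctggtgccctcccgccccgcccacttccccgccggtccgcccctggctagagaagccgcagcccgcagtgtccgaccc
Counted from the start site, the match in *IL1A* begins at position -12, and another begins at position 39, past the stretch shown. Of all 35116 windows in the table, each from 250 bases before to 50 after a start site, 7.71% hold the heptamer. It is also at position -1 of *IRAK1* and in windows of other start sites of *IL1RN* and *IL1RL1*. The NF-κB consensus decamer, searched on both strands, is in none of these 3 windows and in 11.3% of all windows, and among the windows of the 10 genes it was found in that of *IRAK1* alone. The letters TATAAA, present in 11.5% of all windows on either strand, begin at position -30 of *IL1RN*, at -29 of *IL1RL1* and at -239 of *IL1A*, from their canonical start sites. The table holds windows for 9 of the 10 genes, with *IL18* as the exception. A match is a description of the letters and does not show binding.

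*IL1B* (ENSG00000125538.12, chromosome 2, 112829751 to 112836816), which encodes IL-1β, had 17, 29 and 34 counts in the control libraries against 16, 22 and 62 in the HG-OE libraries. The groups overlapped, since HG-OE replicates 1 and 2 lay within or below the range of HG-NC in CPM and HG-OE replicate 3 lay above it. Its log2 fold change was 0.21 (SE 0.432, adjusted p = 0.715), and the interval from -0.72 to 1.14 leaves room for a 2-fold rise. Without HG-OE replicate 3, which held 62.0% of the HG-OE counts, the log2 fold change was -0.60 (SE 0.362, adjusted p = 0.165). At these counts neither a rise nor a fall of *IL1B* was detectable.

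*IL18* (ENSG00000150782.12, chromosome 11, 112143253 to 112164096) had 36.1, 34.7 and 32.3 CPM in the control libraries against 41.6, 40.3 and 44.8 CPM in the HG-OE libraries. All HG-OE libraries lay above all HG-NC libraries, and the log2 fold change was 0.30 (SE 0.0604, adjusted p = 9.93e-04). It was 0.25 without HG-OE replicate 3. *IL33* (ENSG00000137033.12, chromosome 9, 6215786 to 6257983) had 0 counts in 5 libraries and 6 counts in HG-OE replicate 3. A library with no counts could still hold a level worth 3 counts by counting error, so the level of this alarm cytokine was not measurable in the other libraries.

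*IL1RN* (ENSG00000136689.19, chromosome 2, 113099315 to 113134016) had 1, 6 and 3 counts in the control libraries, 4 and 3 in HG-OE replicates 1 and 2 and 44 in HG-OE replicate 3. The last library held 86.3% of the HG-OE counts, while the other 2 HG-OE libraries lay inside the range of HG-NC. Without the low-count filter it was called higher, with a log2 fold change of 2.17 (adjusted p = 0.0342), a value that rests on that library. The balance of agonist to antagonist was taken as the summed FPKM of *IL1A* and *IL1B* over the FPKM of *IL1RN* within each library. It was 217, 50.7 and 103 in the control libraries against 27.3, 30.7 and 5.20 in the HG-OE libraries. The ratio was lower in every HG-OE library, by 2.68 on average on the log2 scale (exact two-sided permutation test, p = 0.1), and by 1.85 without HG-OE replicate 3. With 1 to 6 counts of *IL1RN* in 5 of the libraries, the denominator rests on few counts.

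No receptor chain passed the test. *IL1R1* (ENSG00000115594.12, chromosome 2, 102064544 to 102179874), the signalling receptor for IL-1α and IL-1β, had 6.88, 6.91 and 6.44 CPM in the control libraries against 7.41, 7.38 and 9.18 CPM in the HG-OE libraries. The groups did not overlap, but the log2 fold change of 0.25 (95% interval -0.0091 to 0.50) did not pass (adjusted p = 0.0987), and it was 0.13 without HG-OE replicate 3. *IL1RAP* (ENSG00000196083.10, chromosome 3, 190514051 to 190659750), the accessory chain shared by the IL-1, IL-33 and IL-36 receptors, had a mean of 21.3 ± 0.322 CPM (SD, n = 3) with the control vector and of 20.5 ± 1.50 CPM (SD, n = 3) with hnRNP-F, and the groups overlapped. Its log2 fold change was -0.053 (95% interval -0.21 to 0.10, adjusted p = 0.562), which bounds any change well under 2-fold, and -0.11 without HG-OE replicate 3. A count per gene does not tell the membrane form of IL1RAP from its soluble form. *IL1RL1* (ENSG00000115602.17, chromosome 2, 102311502 to 102352037), the receptor of IL-33, had 2, 1 and 0 counts in the control libraries, 0 in HG-OE replicates 1 and 2 and 8 in HG-OE replicate 3. It shares 95 exonic bases on the same strand with *IL18R1*, which had 50.2 counts per library on average, so that its few counts are uncertain. Both *IL33* and its receptor gene thus had all of their HG-OE counts in the same library.

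Of the kinases, *IRAK2* rose and *IRAK1* did not pass the test. *IRAK1* (ENSG00000184216.14, X chromosome, 154010506 to 154019902), the kinase that leaves the receptor complex to reach TRAF6, was the most abundant of the 10 genes, with a mean of 392 ± 7.95 CPM (SD, n = 3) with the control vector and of 382 ± 9.41 CPM (SD, n = 3) with hnRNP-F. The groups overlapped, and the log2 fold change was -0.035 (95% interval -0.11 to 0.044, adjusted p = 0.449), or -0.023 without HG-OE replicate 3. *IRAK2* (ENSG00000134070.5, chromosome 3, 10164919 to 10243745), whose product sustains the later signal of the receptor, had 65.6, 68.4 and 69.0 CPM in the control libraries against 101, 102 and 85.6 CPM in the HG-OE libraries. The groups did not overlap, and HG-OE replicate 3 was the nearest to the control libraries. The log2 fold change was 0.50 (SE 0.0606, adjusted p = 1.18e-05), and 0.58 without that library.

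**Figure D3:**
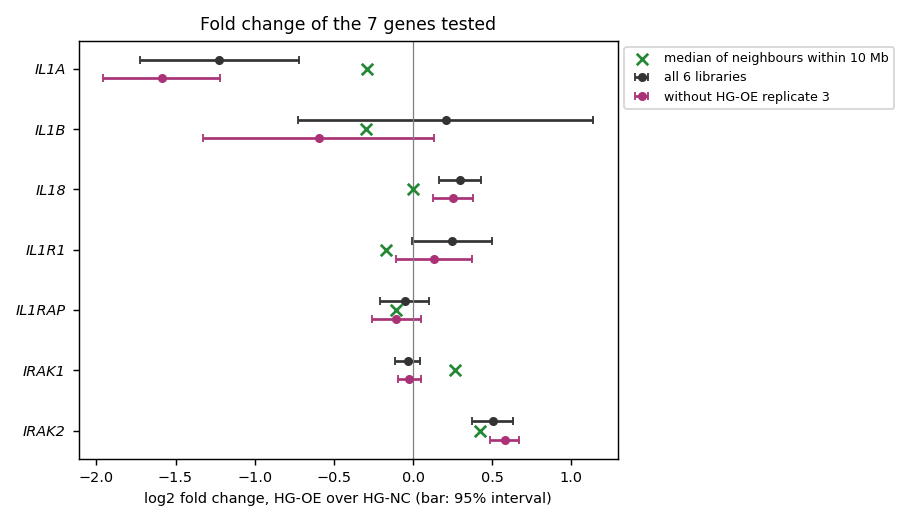
Log2 fold change of HG-OE over HG-NC (x axis) for the 7 genes tested, with 95% intervals, from all 6 libraries (black) and without HG-OE replicate 3 (purple), beside the median log2 fold change of the neighbouring genes within 10 Mb (green crosses). *IL1A* lay far below the median of its neighbours (-1.22 against -0.29), while *IRAK2* lay close to the median of its own (0.50 against 0.43).

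The genes lie in a few regions, and the changes were compared with those of the genes around them. On chromosome 2, *IL1R1* and *IL1RL1* belong to a receptor cluster of 461 kb from *IL1R2* to *IL18RAP*, and *IL1A*, *IL1B* and *IL1RN* to a ligand cluster of 360 kb that also holds the *IL36* genes and *IL37*. Around *IL1A*, the 56 tested genes within 10 Mb with a mean of at least 100 counts had a median log2 fold change of -0.29, against 0.011 for all genes tested, and the test called 35 of them lower and 1 higher. *IL1A* was below all 56, and its log2 fold change minus their median was -0.93 with all 6 libraries, which is short of 2-fold. *IL36G* in the same cluster, under that count and so not among the 56, fell further (-1.37). *IL1R1*, which did not pass the test, was above 64 of its 71 neighbours, whose median was -0.17. Around *IRAK2* on chromosome 3, the 74 neighbours had a median of 0.43, and 56 were higher and 2 lower. With that median removed, the value of *IRAK2* was 0.077, and 31 of the 74 neighbours had a larger log2 fold change than *IRAK2*. The neighbours of *IRAK1* on the X chromosome had a median of 0.26 and those of *IL18* a median of -1.36e-04, and around *IL18* the calls were near even, with 26 of 95 neighbours higher and 24 lower. Without HG-OE replicate 3, the medians around *IL1A* and *IRAK2* were -0.29 and 0.41, beside -1.59 for *IL1A* and 0.58 for *IRAK2*. On those values *IL1A* lay more than 2-fold below its median. The part of these regional shifts in the values of the IL-1 family was not tested.

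**Figure D4:**
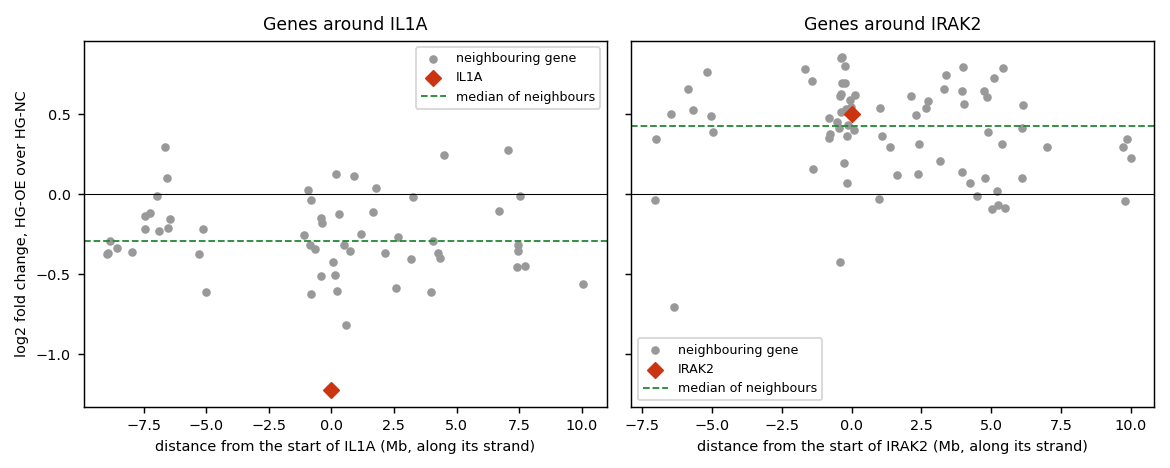
Log2 fold change of HG-OE over HG-NC (y axis) for genes around *IL1A* (left, 56 genes) and *IRAK2* (right, 74 genes). Shown are tested genes within 10 Mb with a mean of at least 100 counts, by distance from the start of *IL1A* or *IRAK2* (x axis, Mb). The dashed line is the median of the neighbours. *IL1A* (diamond, left) lies below every neighbour shown, and *IRAK2* (diamond, right) lies among its neighbours. *IL36G* (-1.37), under that count and not shown, fell further than *IL1A*.

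The other genes of the pathway were taken from 5 lists of 75 genes in all, of which 74 were in the count table and 61 passed the filter. The test called 28 of them lower (45.9%) and 15 higher (24.6%) in HG-OE, against 25.9% of all genes tested in each direction, so the share that was higher was near that of all genes. The other 18 did not pass, and without HG-OE replicate 3 there were 28 lower and 16 higher. Among the other ligands, *IL36G* alone passed the filter. It lies in the ligand cluster, encodes IL-36γ, an epithelial cytokine that signals through IL1RAP, and fell from 2.60 ± 0.785 to 1.01 ± 0.170 CPM (mean and SD, n = 3), which is -1.37 on the log2 scale (SE 0.265, adjusted p = 6.69e-04) and -1.48 without HG-OE replicate 3, below all 57 of its neighbours. *IL36A*, *IL36B*, *IL36RN*, *IL37* and *IL1F10* had at most 4 counts in any library. Of the 5 receptors and decoys tested, 2 rose (40.0%, against 25.9% of all genes) and 3 did not pass. *SIGIRR*, an inhibitory receptor of the family, had a log2 fold change of 0.39 (adjusted p = 0.00547) and *IL18BP*, the secreted inhibitor of IL-18, one of 0.41 (adjusted p = 0.0349). *IL18R1*, the binding chain of the IL-18 receptor, stood at -0.48 (adjusted p = 0.0607) with groups that did not overlap. Without HG-OE replicate 3 these values were 0.29, 0.45 and -0.49, and the same 2 genes passed.

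Of the 23 adaptors, kinases and ubiquitin ligases, all tested, 9 were lower (39.1%), 5 higher (21.7%, near the 25.9% of all genes in each direction) and 9 did not pass, with a median log2 fold change of 0.029. *MYD88*, the adaptor that links the receptor to the IRAK kinases, was the single one past 2-fold. Its counts were 208, 252 and 252 in the control libraries against 581, 636 and 753 in the HG-OE libraries, a rise of 1.35 on the log2 scale (SE 0.101, adjusted p = 1.61e-07), or 1.24 without HG-OE replicate 3. It lies on chromosome 3, where its 86 neighbours had a median of 0.43, and it was above all of them. Further names in this list were chosen after their values were seen. *PELI1* (-0.98) and *PELI2* (-0.91), ubiquitin ligases that act on IRAK proteins, and *TAB2* (-0.84), which brings the kinase TAK1 to TRAF6, fell, while *SHARPIN* (0.65), a subunit of the linear ubiquitin ligase, rose. These were -0.90, -0.87, -0.80 and 0.67 without HG-OE replicate 3. *IRAK4*, the first kinase of the cascade, was lower by 0.24 on the log2 scale (adjusted p = 0.0341), and without HG-OE replicate 3 it did not pass (adjusted p = 0.123).

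Of the 11 genes tested for processing and release, 3 were lower (27.3%, near the 25.9% of all genes), 6 higher (54.5%, against 25.9%) and 2 did not pass, with a median log2 fold change of 0.28. *CASP4*, a caspase that cleaves gasdermin D and pro-IL-18, had 38, 40 and 46 counts in the control libraries against 226, 168 and 458 in the HG-OE libraries. It rose by 2.66 on the log2 scale (SE 0.310, adjusted p = 8.71e-06), and by 2.13 without HG-OE replicate 3, its highest library. *CAPN2* (0.55), *CAPN1* (0.45) and *CAPNS1* (0.38), the subunits of the calpains that cleave pro-IL-1α, rose as well, by 0.57, 0.44 and 0.35 without HG-OE replicate 3, and the names in this list other than *CASP4* were also chosen after their values were seen. *CASP1*, the caspase that matures IL-1β, had 3 to 9 counts in 5 libraries and 50 in HG-OE replicate 3, and the sensor *NLRP3* had at most 2 in any library, so neither could be tested. Other inflammasome genes were measured. The adaptor *PYCARD*, with 85 to 125 counts, was lower by 0.48 on the log2 scale (adjusted p = 0.0124) and by 0.51 without HG-OE replicate 3, and the sensor *NLRP1*, with 133 to 276 counts, had a log2 fold change of 0.26 and did not pass (adjusted p = 0.224).

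Of 21 tested genes known to be induced by IL-1, 15 were lower (71.4%, against 25.9% of all genes), 2 higher (9.52%, against 25.9%) and 4 did not pass, with a median log2 fold change of -0.82 against 0.011 for all genes tested. The list was written with earlier results of these libraries in view, and many of its genes respond to TNF too, so its direction is not independent evidence. Past 2-fold were *CCL2* (-2.82), *CXCL3* (-2.34), *CXCL2* (-1.85), *CXCL8* (-1.78), *CCL20* (-1.41), *BIRC3* (-1.14), *CSF3* (-1.13) and *IL6* (-1.09), which are chemokines and cytokines apart from *BIRC3*, an inhibitor of cell death. All 8 were also called lower without HG-OE replicate 3, with log2 fold changes from -2.78 for *CCL2* to -1.03 for *IL6*. Medians of their neighbours within 10 Mb ran from -0.32 around *CXCL2*, *CXCL3* and *CXCL8* to 0.013 around *BIRC3*. With that median removed, *CSF3* stood at -0.87, short of 2-fold, and the others stayed past 2-fold, with *IL6* the nearest to it (-1.04). *PTGES* (0.32), an enzyme of prostaglandin E2 synthesis, and *ZC3H12A* (0.23), an RNase that degrades inflammatory transcripts, were the genes that rose, by 0.37 and 0.31 without HG-OE replicate 3. They and *PTGS2* were named after their values were seen. *PTGS2*, the inducible cyclooxygenase, did not pass with all libraries (-0.82, adjusted p = 0.0758) and had a log2 fold change of -1.58 without HG-OE replicate 3 (adjusted p = 1.31e-05).

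**Figure D5:**
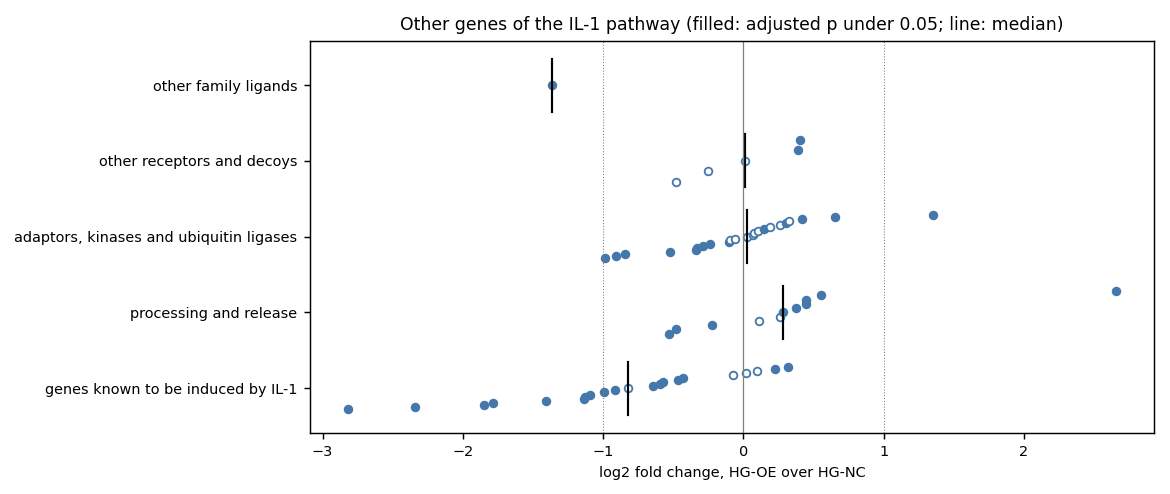
Log2 fold change of HG-OE over HG-NC (x axis) for the 61 tested genes of the 5 pathway lists (rows), with filled points at an adjusted p under 0.05, a line at the median of each list and dotted lines at 2-fold. The induced genes lay mostly to the left (median -0.82), with *MYD88* (1.35) and *CASP4* (2.66) farthest to the right in their lists.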

How the data were processed

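Poly(A) RNA of 6 high-glucose libraries was analysed. After trimming, the authors used HISAT2 and GRCh38, and they deposited counts of uniquely mapped reads per gene. A second deposited table holds FPKM for the same libraries, given to 2 decimals. ComBat_seq is named in the methods, and whether it entered these tables is not given in the sources used here. Strand settings of the counting are not given either.

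Counts were tested in R 4.3.3 with edgeR 4.0.16 (TMM, default filter, quasi-likelihood test) and adjusted by the Benjamini-Hochberg method over 17142 genes. Standard errors and 95% intervals come from that fit. FPKM served for levels between genes. The members and lists were chosen with earlier results of these data known. Named were all members, list genes past the study threshold or otherwise the 3 with the lowest p in a list, and the 3 genes most like *IL1A*, *IL1B* and *IL33* in profile. Further list genes were named after their values were seen. Positions come from GENCODE release 44. Scripts were tested on simulated data. Alternatives used DESeq2 1.42.0 and limma 3.58.1 on log2(FPKM + 1) and log2(FPKM + 0.1). 1 marker of the kidney epithelium list is not reported here.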

Additional observations from a re-analysis of the deposited data

How the results depend on the processing

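Direction and side of the threshold held for *IL1A*, *IL18*, *IL1R1*, *IL1RAP*, *IRAK1* and *IRAK2* in all 14 other fits, where log2 fold changes ran from -1.59 to -0.78 for *IL1A* (adjusted p at most 0.0229), from 0.25 to 0.34 for *IL18* (at most 0.0181) and from 0.46 to 0.58 for *IRAK2* (at most 0.00583). *IL1B* turned to -0.60 without HG-OE replicate 3 and reached 0.53 without HG-OE replicate 1. With the median of its neighbours removed, a value without a test, *IRAK2* moved to 0.077, *IRAK1* to -0.30, *IL1R1* to 0.42 and *IL1RAP* to 0.053. No gene of the 10 passed 2-fold higher, except *IL1RN* without the low-count filter, which gave 1. The count of 1 gene lower by at least 2-fold became 0 with limma on log2(FPKM + 1), with and without its filter, where *IL1A* had -0.78. With 0.1 added in place of 1, limma gave -1.21 for *IL1A* and the count stayed at 1. With each library left out in turn, 1 gene was lower and 2 were higher throughout. In the same fits, pathway genes numbered 25 to 28 lower and 14 to 16 higher. The balance of agonist to antagonist ran from -3.20 to -1.85, with p = 0.1 or 0.2 in the exact permutation test. Deviations from the group means in same-numbered libraries of both groups had correlations of -0.027, 0.030 and -9.93e-04 across genes. Values for differently numbered libraries are not set beside them, and both libraries numbered 3 carried hepatocyte transcripts. The correlations therefore cannot decide whether the numbers pair the libraries. With the replicate number as a block, 1 gene was lower and 2 were higher, with 28 pathway genes lower and 14 higher. *IL1B*, *IL1RN*, *IL33* and *IL1RL1* are limited by depth.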

Other observations

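Other genes of the pathway shared the pattern of *IL1RN*, with counts mostly in HG-OE replicate 3. *CXCL1*, a neutrophil chemokine, had 0 to 4 counts in 5 libraries and 112 in HG-OE replicate 3, although *CXCL2* and *CXCL3* were low in that library as in the rest of HG-OE. *IL18RAP*, the signalling chain of the IL-18 receptor, had 7, 5 and 3 counts in the control libraries against 0, 1 and 0 in the HG-OE libraries, too few to test.

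Profiles over the 6 libraries were compared as log2(CPM + 0.1) centred on HG-NC, among 11562 protein-coding genes with a mean of at least 100 counts. The genes most like *IL1A* were *TTYH2*, *RHOU* and *BAMBI*, with root mean square differences of 0.192, 0.197 and 0.204. Those most like *IL1B* were *SLC40A1*, *BMP4* and *CXCL16* (0.241, 0.263 and 0.268), each with its highest count in HG-OE replicate 3. Those most like *IL33* were *PI3*, *HEATR5A* and *SFN* (0.142, 0.144 and 0.166), with 446, 1201 and 712 counts in that library against at most 137, 500 and 246 in the others. *IL33* had 0 counts outside HG-OE replicate 3, so its profile, and with it this match, is set by the added 0.1 CPM. Unlike *IL33*, these 3 genes were counted in every library. The likeness is over 6 points of 2 groups and says nothing of shared control.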
